A study of Mus musculus with 8 samples.

Results

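The genes described here were both hepatic metallothioneins, the glucocorticoid receptor, the liver's cortisone reductase and 3 target genes of the receptor. They were chosen by name: every probe set whose platform annotation carried Mt1, Mt2, Tsc22d3, Fkbp5, Sgk1, Nr3c1 or Hsd11b1 as its only symbol. This gave 7 probe sets, 1 for each of the 7 genes, of 12488 on the array, where 8251 genes were named by a single symbol. No probe set with several symbols held any of these genes. With 1 probe set a gene, agreement could be judged only between genes and not between probes of the same gene.

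The samples were livers of 8 female Ames dwarf mice, homozygous for the df allele, that ate pelleted chow and drank without restriction and were killed when they were 24 to 26 months old. Each mouse had its own Affymetrix U74Av2 array, a 1-colour oligonucleotide array. Ames dwarf mice are small and long-lived and are deficient in growth hormone, thyroid-stimulating hormone and prolactin. All 8 mice shared genotype and diet, and none of another genotype or diet entered the analysis, so every result concerns differences from liver to liver. The sources used here give neither the hour of death nor the time since the last meal.

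Glucocorticoids cross the cell membrane and bind the receptor encoded by Nr3c1, which sits in the cytosol with heat shock proteins and the co-chaperone Fkbp5 until hormone releases it to the nucleus. Inside hepatocytes the enzyme encoded by Hsd11b1 regenerates active corticosterone from its inert keto form. The receptor then raises genes such as Tsc22d3, an anti-inflammatory leucine-zipper protein, Fkbp5, which feeds back on the receptor, and Sgk1, a kinase acting on ion transport and cell survival. Metallothioneins are small cysteine-rich proteins that bind zinc and copper. Their genes respond to zinc through the factor Mtf1, to glucocorticoids, and to interleukin-6 during the acute phase.

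Promoter sequence is shown for the metallothionein pair, because these genes passed the test of spread and lie side by side, and for Sgk1, because 1 of its windows held the palindrome to which the receptor binds. Sequences are those of RefSeq on GRCm38.p6, 250 bases ending just before an annotated start, all on the plus strand, at chr8:94178839-94179088 for Mt1, chr8:94172368-94172617 for Mt2 and chr10:21993640-21993889 for Sgk1. Capitals mark the metal response element core, searched as TGCACNC or TGCGCNC, and the glucocorticoid response element, searched as GNACA and TGTNC with 3 bases between them, both on either strand.
Mt1: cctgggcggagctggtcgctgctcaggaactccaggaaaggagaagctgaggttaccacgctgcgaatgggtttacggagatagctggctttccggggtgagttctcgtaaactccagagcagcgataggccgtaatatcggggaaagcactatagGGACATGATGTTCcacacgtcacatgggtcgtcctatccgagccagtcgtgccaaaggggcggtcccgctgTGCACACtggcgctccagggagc
Mt2: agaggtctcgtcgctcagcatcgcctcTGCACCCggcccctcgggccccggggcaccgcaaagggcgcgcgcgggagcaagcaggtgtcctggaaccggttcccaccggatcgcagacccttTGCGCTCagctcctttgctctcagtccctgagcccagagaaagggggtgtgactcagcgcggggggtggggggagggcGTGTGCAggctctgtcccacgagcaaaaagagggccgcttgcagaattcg
Sgk1: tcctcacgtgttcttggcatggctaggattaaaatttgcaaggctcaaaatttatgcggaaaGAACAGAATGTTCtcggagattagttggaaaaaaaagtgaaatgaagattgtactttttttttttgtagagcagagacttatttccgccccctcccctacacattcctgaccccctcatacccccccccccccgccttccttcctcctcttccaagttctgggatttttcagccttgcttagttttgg

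The Mt1 window held 1 metal response core, starting 23 bases before the start, and 1 match to the glucocorticoid element, starting 94 bases before it. The 50 bases after this start held 2 further metal response cores. The Mt2 window held 3 metal response cores, starting 223, 128 and 50 bases before the start (the last of them on the minus strand), 1 more in the 50 bases after it, and no match to the glucocorticoid element. Of 32851 promoter windows of this length in the RefSeq table, 21.4% held at least 1 metal response core, 5.17% held 2 or more, and 0.387% held the glucocorticoid element. The glucocorticoid match in the Sgk1 window started 188 bases before the start, and the other windows of this gene, which has 6 annotated starts, held none. The Hsd11b1 window held 1 metal response core, whereas the 3 Tsc22d3 windows and the Fkbp5 window held neither motif. The E-box CACGTG, in 6.02% of all windows, was found once each in the Fkbp5 window and this Sgk1 window. The antioxidant element TGACNNNGC, in 10.2% of all windows, was found once each in the Mt2 and Hsd11b1 windows. The Mt1 window precedes an annotated start at base 94179089 of the chromosome, downstream of the first base of the gene's whole span, so 206 of its 250 bases lie inside that span. The Sgk1 window lies wholly inside that gene's span, before one of its later starts. The Hsd11b1 window and some of the Tsc22d3 windows also lie wholly inside the spans of their genes. Windows of 6 genes were searched, and Nr3c1 was not among them. A match of letters is a description of the sequence and not a measured binding site.

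Livers 4 and 8 stood apart in other gene groups. Median signals lay between 156 (liver 3) and 181 (liver 8), the ratio of 3′ to 5′ Gapdh control signals between 0.806 and 0.969, and that of actin between 1.24 (liver 4) and 1.74 (liver 7). The same value appeared on both arrays of a pair for 0.296% of probe sets at most. Spike-in controls averaged 10.70 to 10.88 on the log2 scale on arrays 1 to 4 and 10.18 to 10.46 on arrays 5 to 8, although the labels name no batch. Hepatocyte markers (7 of 8 listed were on the array, Tat among the listed also being a glucocorticoid target) summed to signals between 97558 in liver 6 and 145016 in liver 3, and all 7 were above the signal needed for testing in some liver. Macrophage and Kupffer cell markers (9 of 11 on the array) summed to 16827 in liver 4 and 11977 in liver 8, against 3474 to 7162 in the other livers. Bile duct markers never summed above 64.7.

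Mt1 and Mt2 differed about 3-fold between livers, and both were lowest in liver 1. Mt1, at chr8:94178883-94180327 on GRCm38.p6, had a signal of 6276 in liver 1, a median of 14119 and a highest signal of 19180.1 in liver 5 (13736 ± 4127, SD, n = 8). Mt2, at chr8:94172618-94173567 with 5315 bases between its end and the first base of the Mt1 span, had 5739.9 in liver 1, a median of 12848 and 17963 in liver 3 (12761 ± 4011, SD, n = 8). Liver 1 therefore stood at 44.4% of the Mt1 median and 44.7% of the Mt2 median. The next lowest signals were 11139 for Mt1, in liver 4, and 8738 for Mt2, in liver 8. Livers 3, 5 and 7 held the 3 highest values of both genes.

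**Figure D1:**
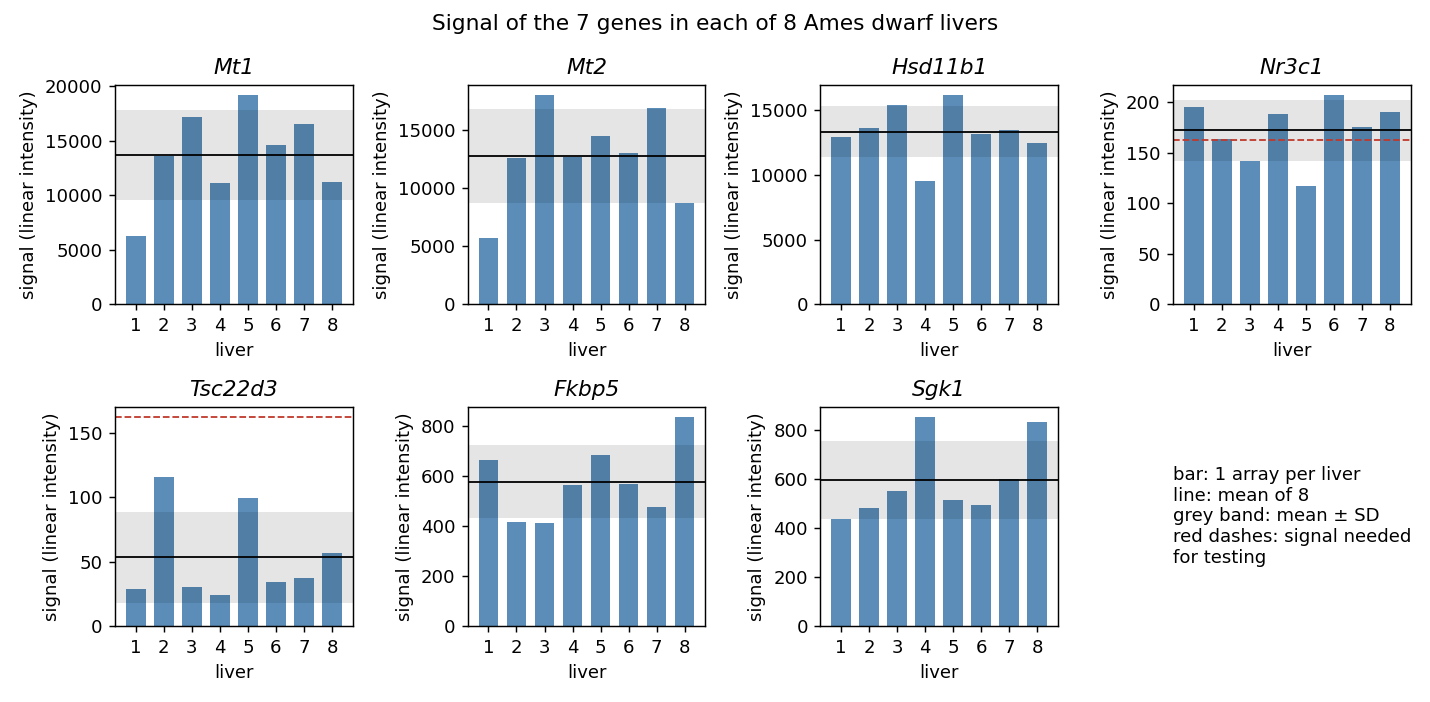
Signal of each gene (vertical axis, linear intensity, starting at 0) in livers 1 to 8 (horizontal axis, 1 array each), with the mean of 8 as a line, the mean ± SD as a grey band and, for Nr3c1 and Tsc22d3, the signal of 162 needed for testing as red dashes. Mt1 and Mt2 share their lowest liver, liver 1, Sgk1 is highest in livers 4 and 8, and every Tsc22d3 bar lies under the red line.

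The spread of both metallothioneins was larger than that of most probe sets of like signal. The variance of each probe set's log2 signal over the 8 livers was set against the typical variance at that signal, read from a curve through 6211 tested probe sets, with Benjamini-Hochberg adjustment over all of them. To be tested, a probe set needed a mean log2 signal over that of the middle probe set, at a signal of 162. Mt2 had an SD of 0.54 on the log2 scale, 2.67 times the typical SD (adjusted p = 5.11e-07), and Mt1 an SD of 0.51, 2.56 times the typical SD (adjusted p = 2.85e-06). These were 2 of the 6 members that could be tested, where 11.3% of all tested probe sets passed. In limma's stricter test, which allows for how much variances scatter around that curve, 0 of 6 members and 0.0% of all tested probe sets passed. At an unadjusted p under 0.05 it called 2 of 6 members, again Mt1 and Mt2, and 6.84% of all. Liver 1 decided the calls: without it the SDs were 0.34 for Mt2 (adjusted p = 0.118) and 0.30 for Mt1 (adjusted p = 0.299), and the range narrowed to 2.06-fold for Mt2 and 1.72-fold for Mt1. In bulk liver RNA, fewer cells of a type and less RNA per cell cannot be told apart. The hepatocyte markers summed to 110615 in liver 1, inside their range over the other livers.

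**Figure D2:**
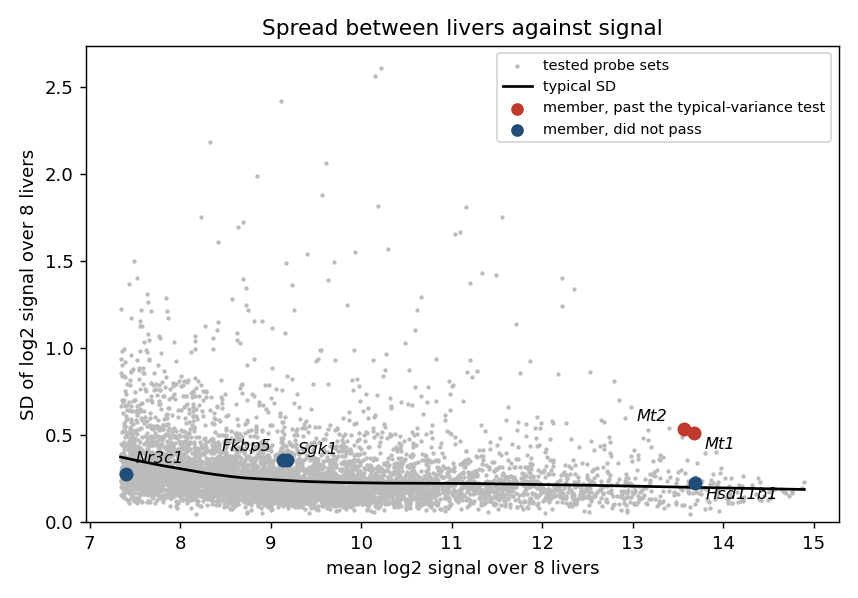
Standard deviation of log2 signal over the 8 livers (vertical axis) against mean log2 signal (horizontal axis) for the 6211 tested probe sets in grey, with the typical SD as a black curve. Mt1 and Mt2 (red) passed the typical-variance test at 2.56 and 2.67 times the typical SD; Fkbp5, Sgk1, Hsd11b1 and Nr3c1 (blue) did not.

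The correlation of the metallothioneins with each other just missed the threshold after adjustment. Over the 8 livers, log2 signals of Mt1 and Mt2 correlated with a Pearson r of 0.926 (exact two-sided permutation p = 0.00248 over all 40320 pairings) and a Spearman rho of 0.857 (exact permutation p = 0.0107). After adjustment over all 21 pairs of the 7 genes, p was 0.0521 for r and 0.1125 for rho. Without livers 1 and 5, the livers farthest from the Mt1 median, r was 0.863, and without liver 1 alone it was 0.774. With both genes centred within arrays 1 to 4 and within arrays 5 to 8, r was 0.955 (permutation over all 8 livers, adjusted p = 0.0234). That p is not exact, because centred values can be exchanged only within each set of arrays. The adjusted p ranged from 0.0167, with arrays scaled to a common median, to 0.233 over the 15 alternatives, and the pair also passed without liver 4 (r = 0.952, exact permutation, adjusted p = 0.0354) and without liver 5 (r = 0.953, exact permutation, adjusted p = 0.0375). The genes parted in single livers: liver 4 stood at 98.4% of the Mt2 median and 78.9% of the Mt1 median, and liver 5 at 113% of the Mt2 median and 136% of the Mt1 median.

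**Figure D3:**
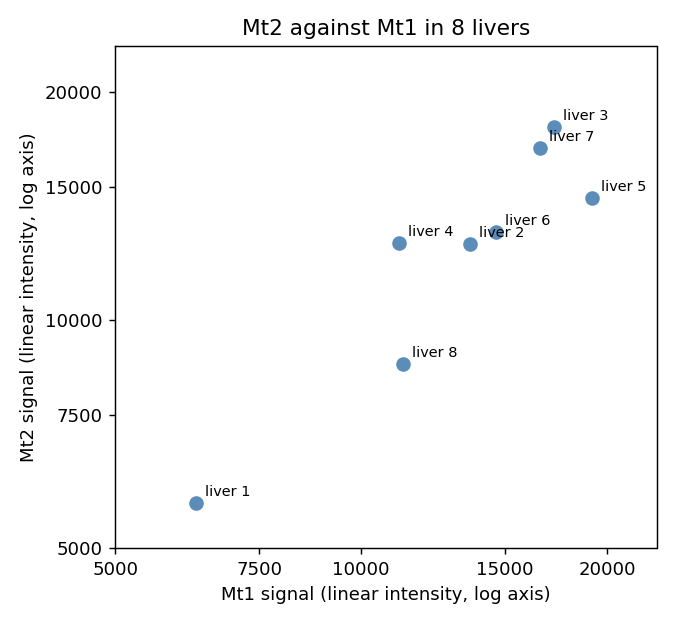
Mt2 signal (vertical, log axis) against Mt1 signal (horizontal, log axis), 1 point per liver. The points rise together (r = 0.926), with liver 1 alone at the low end and liver 4 high in Mt2 for its Mt1.

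Among other metal-binding and zinc-handling genes, 1 passed the test of spread. The zinc and metal list held 21 genes, of which 14 were tested, and 1 of these 14 (7.14%) passed the typical-variance test, against 10.2% of the 4819 tested genes. That gene was Hmox1, heme oxygenase, with a signal of 718 in liver 3 and 2294 in liver 4, a 3.20-fold range (adjusted p = 0.000362 by this test). Mtf1, the zinc-sensing factor of metallothionein genes, had its lowest signal, 220.1, in liver 8 and its highest, 344, in liver 2 (1.56-fold). Fth1, ferritin heavy chain, was the most uniform member at 1.20-fold. Mt3, a metallothionein known mainly from brain, read between 1043 in liver 2 and 2069 in liver 8 (adjusted p = 0.06). Mt4 never read above 28.5. Probe sequences were not used here, so a contribution of other metallothionein transcripts to the Mt3 signal was not tested. The median range over the list was 1.58-fold, beside 1.63-fold over all tested probe sets.

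Hsd11b1, the cortisone reductase at chr1:193221640-193264045, was among the steadier members. Its signal was 9519 in liver 4, at the median 13298 and 16104 in liver 5 (13313 ± 1976, SD, n = 8), a range of 1.69-fold. Liver 4 alone was low, the next lowest being liver 8 with 12463, and without liver 4 the range was 1.29-fold. Its SD of 0.23 was 1.14 times the typical SD (adjusted p = 0.799 in the typical-variance test). For scale, the highest signal of any probe set on an array lay between 27092 and 39246.

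None of the tested genes on a list of steroid supply and clearance was called. Of this list of 12, 7 were tested and 0 passed the typical-variance test, against 10.2% of all tested genes. At an unadjusted p under 0.05 in that test there was 1 of 7, beside 1141 of 6211 tested probe sets. In limma's test 0 passed, also 0 unadjusted, beside 0.0% and 6.84% of all tested probe sets. With so few genes, a count of 0 does not set the list apart. Serpina6, corticosteroid-binding globulin, lay between 17104 in liver 4 and 26807 in liver 3. H6pd, which makes the cofactor for the reductase, lay between 3864 in liver 4 and 5942 in liver 5, the livers that were also lowest and highest for Hsd11b1. Liver 5 was highest for 19.5% of all tested genes. In all, 4 of the 7 were lowest in liver 4, as were 22.4% of all tested genes. The widest range was 2.40-fold (Hsd17b2, which inactivates sex steroids) and the narrowest 1.38-fold (Akr1c6, a hydroxysteroid dehydrogenase). Hsd11b2, the enzyme that inactivates glucocorticoid in kidney, read at most 49.1, below the signal needed for testing.

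Nr3c1, the receptor itself, gave a low signal with a range of 1.77-fold, a spread below the typical one at that signal. It had 117 in liver 5, a median of 182 and 207 in liver 6 (172 ± 30.2, SD, n = 8), and exceeded 162 on 6 of 8 arrays. The values lay close together, apart from livers 5 and 3, which were the lowest 2. Its SD of 0.28 was 0.753 times the typical SD (adjusted p = 1 in the typical-variance test). Without detection calls, a signal near this level could not be told from background. Of the chaperones and cofactors of the receptor, 0 of 8 tested genes passed the typical-variance test, against 10.2% of all tested genes. At an unadjusted p under 0.05 in that test there were 2 of 8, beside 1141 of 6211 tested probe sets. Limma's test called 0, also 0 unadjusted, beside 0.0% and 6.84% of all tested probe sets. With so few genes, these counts do not set the list apart. Hsp90aa1, the heat shock protein that holds the receptor ready for hormone, had the widest range, 2.19-fold, and its partner Dnaja1 the narrowest, 1.44-fold. Fkbp4, the co-chaperone that favours nuclear transport, lay between 1704 in liver 4 and 2857 in liver 1.

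Of the 3 target genes among the members, Fkbp5 and Sgk1 ordered the livers differently, and Tsc22d3 was too dim for its order to be judged. Tsc22d3, at chrX:140539528-140600522, read 24.4 in liver 4, a median of 35.75 and 116 in liver 2 (53.35 ± 35.1, SD, n = 8). Livers 2 and 5 (99.1) were high and the other 6 lay between 24.4 and 56.9. All of these are below the signal needed for testing, so its 4.75-fold range could not be told from background variation. Tested among all 12422 non-control probe sets, of which 8.36% passed, and in limma's test 0.0% passed and 2.75% had an unadjusted p under 0.05. There the SD of Tsc22d3, 0.85, was 1.21 times the typical SD (adjusted p = 0.628 in the typical-variance test).

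Fkbp5, at chr17:28398753-28486149, had 413 in liver 3, a median of 565 and 834 in liver 8 (576 ± 145, SD, n = 8), a range of 2.02-fold. Liver 2 (416) was nearly as low as liver 3, and livers 5 (681) and 1 (663) came after liver 8. Its SD of 0.36 was 1.49 times the typical SD (unadjusted p = 0.0297 and adjusted p = 0.187 in the typical-variance test across all tested probe sets). It did not pass under any of the alternatives run.

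Sgk1, at chr10:21882184-21999903, had 439 in liver 1, a median of 534 and 853.5 in liver 4 (597 ± 160.0, SD, n = 8), a range of 1.94-fold. Livers 4 and 8 (833) lay above all others, the next highest being liver 7 with 603. Its SD of 0.36 was 1.5 times the typical SD (unadjusted p = 0.0269 and adjusted p = 0.174 in the typical-variance test across all tested probe sets). Without livers 4 and 8 its range was 1.37-fold and its SD 0.16. The macrophage markers were highest in the same livers, whereas endothelial markers (7 of 8 on the array) summed to 2081 in liver 4 and 2099 in liver 8, against 1576 to 2741 in the others. The part of these cells in the Sgk1 signal was not tested.

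No correlation among receptor, reductase, targets and metallothioneins passed after adjustment. Of the 21 pairs among the 7 genes, 12 had a positive and 9 a negative r, and 0 passed by exact permutation after adjustment, by r or by rho. At an unadjusted p under 0.05 there was 1 by r (Mt1 and Mt2) and 3 by rho (Mt1 with Mt2, Mt1 with Hsd11b1 and Nr3c1 with Hsd11b1). Mt1 and Hsd11b1 had r = 0.515 (exact permutation p = 0.195, adjusted p = 0.512) and rho = 0.857 (exact permutation p = 0.0107, adjusted p = 0.1125), the same rho as Mt1 and Mt2. Without livers 1 and 5, r of Mt1 and Hsd11b1 was 0.796. Between the target genes, r was 0.0338 for Tsc22d3 and Fkbp5, -0.233 for Tsc22d3 and Sgk1 and 0.322 for Fkbp5 and Sgk1. Tsc22d3 lay below the signal needed for testing on all arrays, so its r values set no firm relation. Fkbp5 ran against Mt2 with r = -0.626 (exact permutation p = 0.0955, adjusted p = 0.401) and rho = -0.524 (exact permutation p = 0.197, adjusted p = 0.516). Leaving out livers 1 and 8 gave r = -0.343. Centring within arrays 1 to 4 and within arrays 5 to 8 gave r = -0.821 (permutation over all 8 livers, p = 0.00697, adjusted p = 0.0732). As for the metallothionein pair, that p is not exact. Nr3c1 ran against Hsd11b1 with r = -0.692 (exact permutation p = 0.0676, adjusted p = 0.401) and rho = -0.762 (exact permutation p = 0.0368, adjusted p = 0.257). Without livers 3 and 5 that r was -0.201, and without liver 4 it was -0.943 (exact permutation, adjusted p = 0.0354), the 1 setting of 14 alternatives in which this pair passed. The Nr3c1 signal, 117 to 207, was near a level that could not be told from background, so its r values set no firm relation either.

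Hsd11b1 was lower where acute-phase genes were higher. An acute-phase score, the mean centred log2 signal of 17 tested acute-phase genes, was 0.93 in liver 4, 0.67 in liver 8 and 0.43 in liver 1, and lay between -0.57 and -0.20 in the others. The list was known from earlier results to be high in livers 4 and 8. Hsd11b1 correlated with this score with r = -0.838 (exact two-sided permutation p = 0.000694, adjusted over the 7 genes p = 0.00486) and rho = -0.929 (exact permutation p = 0.00223, adjusted p = 0.0156). With both centred within arrays 1 to 4 and within arrays 5 to 8, r was -0.841. Livers 4 and 8, the livers farthest from the median score, carried much of it. Without both, r was -0.613 (adjusted p = 0.245 by exact permutation), and without liver 4 alone it was -0.716 (adjusted p = 0.0934 by exact permutation). Quantile normalization also ended the call (r = -0.684, exact permutation, adjusted p = 0.178), whereas scaling to a common median did not (r = -0.874, exact permutation, adjusted p = 0.00208). The median signal of the arrays was also highest in livers 4 and 8. Macrophage markers were highest in the same livers, and the ratio of 3′ to 5′ actin control signals was lowest in liver 4 (1.24, against 1.62 in liver 8 and 1.41 to 1.74 over all livers but liver 4). The part of array signal, of these cells or of the control ratio in this relation was not tested.

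**Figure D4:**
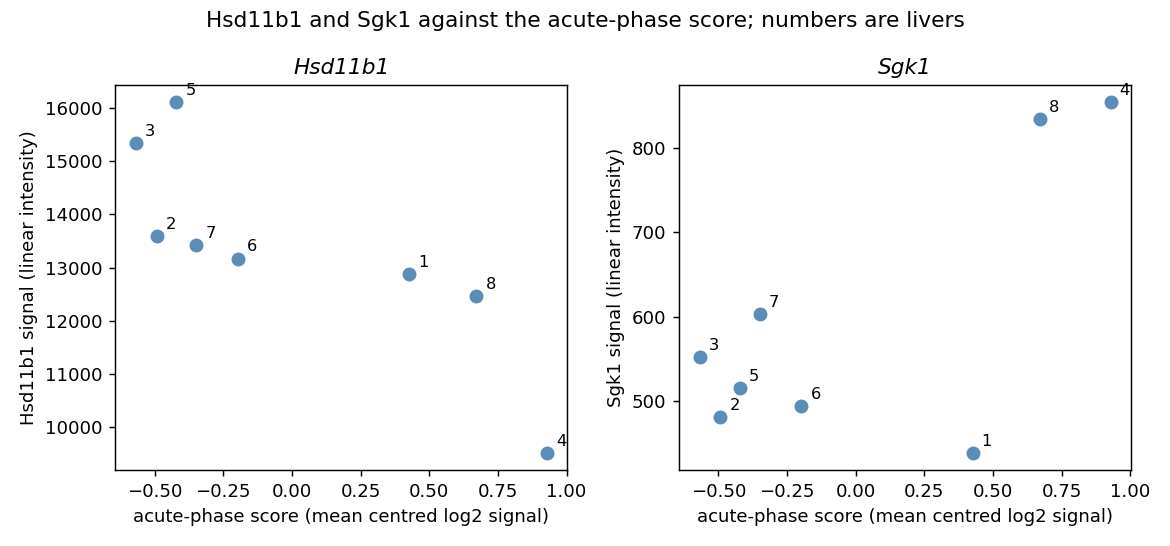
Signal of Hsd11b1 (left) and Sgk1 (right) on a linear axis that does not start at 0, against the acute-phase score (horizontal axis, mean centred log2 signal of 17 genes), 1 numbered point per liver. Hsd11b1 falls as the score rises (r = -0.838), whereas Sgk1 is high only in livers 4 and 8 and lowest in liver 1, which has the third highest score.

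No other member passed with this score. Mt1 had r = -0.691 (exact permutation p = 0.0445, adjusted p = 0.1375) with rho = -0.738 (exact permutation p = 0.0458, adjusted p = 0.160). Leaving out livers 4 and 8 gave r = -0.916, still short of the threshold after adjustment. Mt2 had r = -0.620 (exact permutation p = 0.0918, adjusted p = 0.1375) with rho = -0.595 (exact permutation p = 0.132, adjusted p = 0.185). Leaving out the same livers gave r = -0.929, also short of it. Among those 6 livers, liver 1 had the highest score, 0.43, the next being -0.197 in liver 6, and also the lowest signal of both genes. Leaving out liver 1 in place of livers 4 and 8 gave r = -0.851 for Mt1 (exact permutation, adjusted p = 0.0542) and -0.680 for Mt2 (exact permutation, adjusted p = 0.192). Both metallothioneins gave a negative r, although the gene pair is known as responsive to interleukin-6. Sgk1 had r = 0.656 (exact permutation p = 0.0787, adjusted p = 0.1375) with rho = 0.405 (exact permutation p = 0.327, adjusted p = 0.327), but r turned to -0.660 without livers 4 and 8. For Fkbp5, Nr3c1 and Tsc22d3 r was 0.628, 0.586 and -0.439, with adjusted exact permutation p of 0.1375, 0.138 and 0.280.

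Further glucocorticoid targets of liver included genes that varied widely. Of 30 listed, 23 were tested and 8 (34.8%) passed the typical-variance test, against 10.2% of all tested genes. In limma's test 0 of 23 passed and 7 had an unadjusted p under 0.05, beside 0.0% and 6.84% of all tested probe sets. The list was drawn up with earlier results of these data known, so its count is a description. Zbtb16, a zinc-finger repressor, ranged from 94.5 in liver 4 to 374 in liver 1 (adjusted p = 6.19e-05 in the typical-variance test), and its lowest signals were too dim to be told from background. Angptl4, an inhibitor of lipoprotein lipase, ranged from 299.5 in liver 4 to 1058 in liver 2 (adjusted p = 8.67e-06 by the same test), and a further tested probe set of the gene followed it (r = 0.973) over a 2.34-fold range. Cebpb, a transcription factor of the acute phase and gluconeogenesis, ranged from 1161 in liver 1 to 3015.5 in liver 4 (adjusted p = 0.000442 by the same test).

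The other 5 of these were Tat and G6pc, enzymes of amino acid breakdown and glucose release, the phosphatase Dusp1, Igfbp1 and Lcn2. Their ranges were 2.30-fold for Tat, 6.21-fold for G6pc, 3.92-fold for Dusp1, 14.3-fold for Igfbp1 and 76.7-fold for Lcn2, which was also counted in the acute-phase score. A further tested Lcn2 probe set ranged 2.0-fold with an r of 0.0739 to the first. Of the 23 genes, 8 were highest in liver 3, as were 11.4% of all 4819 tested genes, and 4 were highest in liver 4, as were 17.7% of all. Liver 4 was lowest for 9 of the 23 and for 22.4% of all. Per1, a clock gene with a strong response to glucocorticoid, lay between 210.1 in liver 8 and 498 in liver 3 without passing (adjusted p = 0.0668 in the typical-variance test). The narrowest range was 1.26-fold, for the sulfotransferase Sult1a1.

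**Figure D5:**
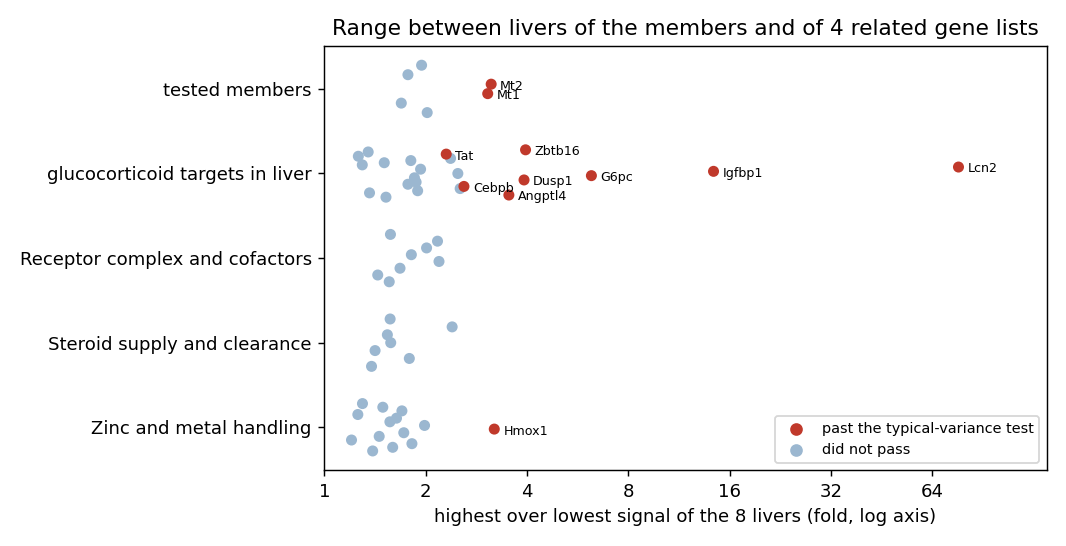
Highest over lowest signal of the 8 livers (horizontal, log axis) for the 6 tested members and for 4 lists of related genes, 1 point per tested gene, red where the typical-variance test was passed. The 8 red glucocorticoid targets reach from 2.30-fold (Tat) to 76.7-fold (Lcn2), while the receptor and steroid lists hold no red point.

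The genes most like each tested member were sought among the 4819 tested genes by Pearson's r over the 8 livers, as a description, since so few livers give high values by chance among so many genes. For Mt1 they were Atf4, a transcription factor of amino acid stress (r = 0.950), Ocel1 (0.946) and Kdelr1, a receptor that retrieves proteins to the endoplasmic reticulum (0.933). Mt2 ranked the fourth among 4818 genes for Mt1. For Mt2 they were Mst1, the hepatocyte-made macrophage-stimulating protein (r = 0.929), Mt1 (0.926) and Dsg2, a desmosomal cadherin (0.917). All of these genes other than the metallothioneins were, like them, lowest in liver 1, as were 8.24% of all tested genes, but ranged only 1.28-fold to 1.70-fold. A shared lowest or highest liver, here and for the members below, follows largely from choosing genes by r and is no separate result.

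For Fkbp5 the most similar genes were Nup62, a nuclear pore protein (r = 0.964), Cd99 (0.942) and Tars, a threonyl-tRNA synthetase (0.934), each lowest in liver 3 and highest in liver 8. For Sgk1 they were Pdia5, a protein disulfide isomerase (r = 0.968), and the cholesterol synthesis enzymes Hmgcs1 (0.950) and Dhcr7 (0.943), which ranged 2.65-fold and 3.26-fold and passed the typical-variance test. For Nr3c1 they were Htr1d, a serotonin receptor (r = 0.975), Gtf2f2, a general transcription factor (0.971), and Zmym4 (0.969), each lowest in liver 5 and highest in liver 6. Nr3c1 read only 117 to 207 and Htr1d 116 to 325, and signals near the lower of these could not be told from background. The r values to Nr3c1 therefore set no firm relation. For Hsd11b1 they were Chchd7 (r = 0.980), Acp6, a lysophosphatidic acid phosphatase (0.974), and Synj2bp, an outer mitochondrial membrane protein (0.973), each lowest in liver 4. The number of genes with r above 0.9 was 61 for Hsd11b1, 14 for Fkbp5, 13 for Sgk1, 12 for Nr3c1, 7 for Mt1 and 5 for Mt2, each of 4818.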

How the data were processed

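The deposited table held 1 linear intensity per probe set and array for 12488 probe sets. Per the labels, Affymetrix mouse U74Av2 arrays went through a GeneArray scanner, with image analysis as in an earlier publication; software, scaling target and detection calls are unknown here. The mean after trimming 2% at each end differed by 0.16% between arrays, so the authors' intensities were taken as already scaled. Array number, not read depth, limits precision. The 66 control probe sets were left out. Intensities below 11.2 (the 10th percentile) were set to it and log2 values taken; the 6211 probe sets over the median mean log2 (a signal of 162) were tested. Typical variance came from limma 3.58.1 loessFit (span 0.3, R 4.3.3) on log variance, with a chi-square test on 7 degrees of freedom; limma's F test used a trended robust prior with 4.90 degrees of freedom. Both are one-sided with Benjamini-Hochberg adjustment and were tested on simulated data. Correlations used all pairings (exact permutation, Python 3.11.15 and numpy 2.4.6). A gene was represented by its brightest tested probe set.

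The members, gene lists and tests were chosen with earlier results of these data known. Named genes were all members, the 3 tested genes with the highest r to each, and, of each related list, those past the typical-variance test and those with the widest and narrowest range; Mtf1, Mt3, Mt4, Serpina6, H6pd, Hsd11b2, Fkbp4 and Per1 were named after their values were seen. No pooled r was to be given where a gap exceeded 50% of the range with at least 2 arrays on each side; none did. Alternatives were other scalings, floors, filters and a loess span of 0.5, and leaving out livers.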

Additional observations from a re-analysis of the deposited data

Results flagged for a closer look

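Of 44 genes and ratios examined, 3 had a single liver set apart from the other 7 beyond the 95% limit of Dixon's test for 8 samples, by the gap to the nearest other liver over the whole range; chance gives about 1 in 20, and none of the 3 is a member. Hmox1 read 2294 in liver 4 and at most 1329 elsewhere, a gap of 0.612 of its range. Lcn2 read 10195 in liver 4 and 4288 in liver 8, a gap of 0.587 of its range. Dusp1 read 3342 in liver 3 and at most 2031 elsewhere, a gap of 0.527 of its range.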

How the results depend on the processing

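The count of members past the typical-variance test was 2 in all 16 alternatives except without liver 1, where it was 0 (0 to 2 with each liver left out). The typical-variance count was 699 of 6211 tested probe sets (11.3%), 348 of 3106 (11.2%) with the filter at the 75th percentile and 1038 of 12422 (8.36%) with no filter; limma's count was 10 with median scaling, 2 with that filter and 0 otherwise. For Mt1 and Mt2, r passed after adjustment with median scaling (0.935) and without liver 4 or liver 5. It ranged from 0.774 to 0.953 with each liver left out. With centring within arrays 1 to 4 and 5 to 8, r was 0.955, but its p was not exact and is not counted as a pass. The other 20 pairs gave 0 to 1 calls with a liver left out and 0 in the other settings. The 1 call with the acute-phase score became 0 with quantile normalization and 0 without livers 4 and 8, and was 0 to 1 with each liver left out; the cause was not tested. The count of glucocorticoid targets, run in 11 settings added after seeing the data, lay between 7 and 10. Agreement of probe sets of 1 gene, and use of a gene's other probe sets, were not run because each member had 1 probe set. No paired analysis was possible because there was 1 group. Without detection calls, signals near 162 or below set no firm level for Nr3c1 and Tsc22d3.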
